A study of Mus musculus with 12 samples.

Results

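The genotype by R848 interaction measures, for each gene, how far the response of Rasgef1b knockout macrophages to R848 differed from that of wild-type macrophages. It was computed as the R848 minus saline difference in knockout cells less the same difference in wild-type cells, so a positive value means more signal gained, or less lost, in the knockout. All 12 arrays of the 12 in the study entered it, 3 in each of 4 groups. The groups were wild type with saline, wild type with R848, knockout with saline and knockout with R848. R848 acted for 4 h; the sources used here give neither its dose nor a time for saline. All cells were mouse bone marrow-derived macrophages, cultured with medium that L929 fibroblasts had conditioned, a source of the growth factor M-CSF. The knockout animals carried Rasgef1b fl/fl and vav-icre, a Cre recombinase driven by the Vav promoter in blood-forming cells. No group carried Cre alone, so an effect of Cre and the loss of Rasgef1b cannot be told apart. Whether the replicates were separate animals or cultures is unstated, so every p-value measures array-to-array spread that could be technical.

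R848 is a small molecule that binds Toll-like receptor 7 (TLR7) in endosomes. The receptor signals through the adaptor Myd88 to the kinases of the Irak family and from there to NF-kB, the MAP kinases and interferon regulatory factors, which switch on cytokine and chemokine genes within hours. Rasgef1b encodes a guanine nucleotide exchange factor, a protein that loads Ras-family GTPases with GTP, and is itself a gene that Toll-like receptor signals raise. Ras GTPases feed the Raf, Mek and Erk kinases, whose output includes the Dusp phosphatases and the Spred and Spry inhibitors.

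Most responses to R848 were of similar size in both genotypes. Of 14079 genes tested, 2 had an interaction past the threshold, a Benjamini-Hochberg adjusted p under 0.05 in a linear model (limma), which is 0.0142% of those tested; 1 was higher and 1 lower, each 0.00710%. Cxcl1, a chemokine that attracts neutrophils, rose 15.2-fold in wild-type cells and 1.86-fold in knockout cells. Enpp4, an ectoenzyme of the nucleotide pyrophosphatase family on the cell surface, rose 2.18-fold in knockout cells, while its wild-type change was 1.16-fold and did not pass (adjusted p = 0.0704). At an unadjusted p under 0.05 there were 694 genes, 4.93% of those tested, with 330 interactions above 0 and 364 below. That count depended on the fit, from 688 with an intensity trend and robust spread to 1002 with genotype and replicate number as correlated pairs. The shares given below for comparison are those of the main fit. Across the 14079 genes, which are not independent of each other, the wild-type and knockout responses correlated with 0.97 (Pearson) and 0.88 (Spearman).

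**Figure D1:**
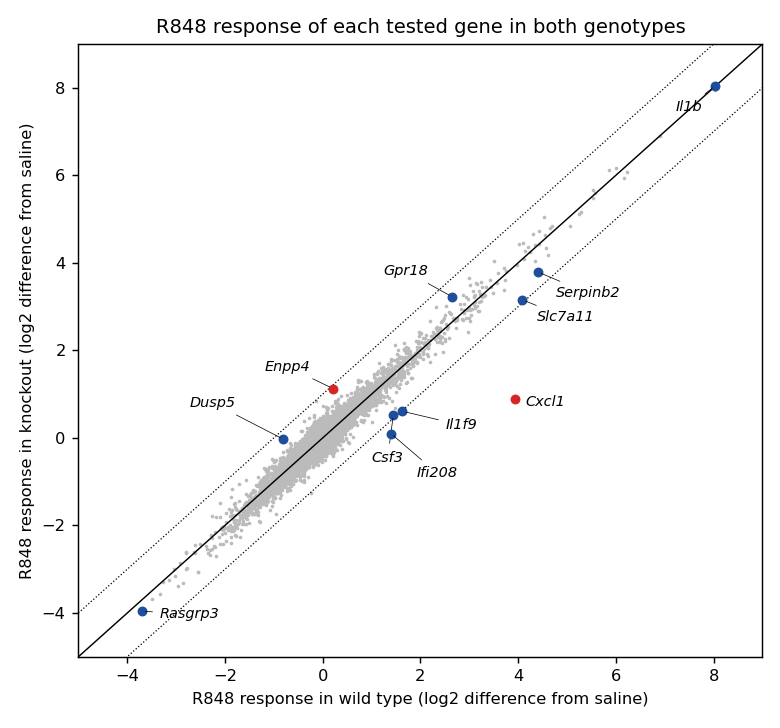
R848 response of each of the 14079 tested genes, as log2 difference from saline, in wild type (horizontal axis) and knockout (vertical axis). The solid line marks equal responses and the dotted lines a difference of 1; red points are the 2 genes whose interaction passed the threshold, blue points other genes named in the text, and Cxcl1 lies farthest from the solid line.

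Cxcl1 was read by 1 row of the array. Its log2 values were 4.26, 4.17 and 4.30 in wild-type cells with saline and 8.19, 8.25 and 8.08 with R848. In knockout cells they were 4.69, 4.23 and 4.64 with saline and 5.29, 5.19 and 5.77 with R848. The saline arrays of the genotypes overlapped, whereas every knockout array with R848 lay below every wild-type array with R848 and above every saline array. The interaction was -3.03 ± 0.20 on the log2 scale (SE, 95% interval -3.46 to -2.61, limma adjusted p = 4.58e-06). Knockout differed from wild type by 0.28 with saline (adjusted p = 0.434) and by -2.76 with R848 (adjusted p = 1.5e-07). The saline signal lay below the 40th percentile of the rows on all 3 wild-type arrays and on 1 knockout array, and the log2 differences of such dim rows are compressed.

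Cxcl1 lies on chromosome 5 in a cluster of genes for CXC chemokines, small secreted proteins of which several draw neutrophils through the receptor Cxcr2. Cxcl2 and Cxcl3, the neighbours of Cxcl1 in the order of the tested genes, are the family members closest to it in function. Cxcl2 stood at 5.22, 5.95 and 5.71 with saline and 10.10, 10.04 and 9.64 with R848 in wild-type cells. In knockout cells it stood at 4.60, 5.27 and 5.95 with saline and 10.07, 9.80 and 9.95 with R848. Both genotypes therefore overlapped in each treatment, and the interaction of Cxcl2 was 0.37 (95% interval -0.42 to 1.15). Cxcl3 reached 10.06, 9.78 and 9.77 with R848 in wild-type cells and 9.69, 9.91 and 10.11 in knockout cells, from saline values between 3.57 and 4.09 on the 6 arrays. Its interaction was 0.15 (95% interval -0.23 to 0.54), which excludes a loss of the size seen for Cxcl1. Pf4, a platelet chemokine of the same cluster, had -0.17, and Ppbp, which yields neutrophil-activating peptides, had 0.31 with an adjusted p of 0.974. Cxcl5 did not pass the filter on dim rows.

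The 250 bases before the RefSeq start sites of these genes are shown because the interaction of Cxcl1 stood apart from those of Cxcl2 and Cxcl3, whose intervals overlap. They are from GRCm38.p6, 5′ to 3′ on the strand of the gene, with capitals for matches to the kappa B motif, bound by NF-kB, on either strand. The letters searched were GGG, any 2 bases, then TTTCC, or on the opposite strand GGAAA, any 2 bases, then CCC. The intervals are chr5:90890995-90891244 for Cxcl1, chr5:90903649-90903898 for Cxcl2 and chr5:90785851-90786100 for Cxcl3, all on the plus strand, and chr17:44105810-44106059 on the minus strand for Enpp4.
Cxcl1: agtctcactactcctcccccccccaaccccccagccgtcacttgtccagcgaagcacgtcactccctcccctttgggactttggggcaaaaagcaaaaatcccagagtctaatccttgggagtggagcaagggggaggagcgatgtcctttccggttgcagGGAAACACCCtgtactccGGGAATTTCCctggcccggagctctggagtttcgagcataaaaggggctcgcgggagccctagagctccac
Cxcl2: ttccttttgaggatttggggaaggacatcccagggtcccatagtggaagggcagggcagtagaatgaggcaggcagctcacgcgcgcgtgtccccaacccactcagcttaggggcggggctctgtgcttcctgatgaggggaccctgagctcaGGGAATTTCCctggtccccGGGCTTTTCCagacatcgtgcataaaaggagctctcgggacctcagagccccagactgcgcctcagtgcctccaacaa
Cxcl3: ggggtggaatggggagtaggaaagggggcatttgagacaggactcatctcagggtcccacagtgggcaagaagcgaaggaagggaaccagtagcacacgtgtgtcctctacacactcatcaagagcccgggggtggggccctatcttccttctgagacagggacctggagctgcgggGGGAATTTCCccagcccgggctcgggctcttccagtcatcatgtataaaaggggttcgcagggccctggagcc
Enpp4: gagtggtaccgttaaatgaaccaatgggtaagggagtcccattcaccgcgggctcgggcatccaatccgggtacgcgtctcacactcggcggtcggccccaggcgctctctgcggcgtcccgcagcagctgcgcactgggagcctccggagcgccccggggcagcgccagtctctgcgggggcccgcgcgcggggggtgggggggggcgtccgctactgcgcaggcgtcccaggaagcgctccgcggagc
Cxcl1 and Cxcl2 held 2 matches each, Cxcl3 held 1 and Enpp4 held 0, against 464 of all 32851 promoters of this length, or 1.41%, with at least 1. In Cxcl1 the matches lay 89 to 80 bases before the start, on the opposite strand, and 71 to 62 bases before it. The AP-1 motif TGANTCA was found in none of these 4 windows and in 6.75% of all promoters. A match is a description of the letters in the window and was not tested as a site, and the motifs do not overlap.

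Cxcl1 is also near the targeted gene. Rasgef1b lies on chromosome 5, and Cxcl1 was the 36th tested gene from it. Among the 100 genes within 50 tested genes of Rasgef1b, Cxcl1 alone passed the adjusted threshold, 4 interactions were above 0 and 5 below at an unadjusted p under 0.05 (2.34% and 2.59% over all tested genes), and the median interaction was 0.03. The next genes on either side, Cxcl2 and Cxcl3, were described above. Rasgef1b itself stood at 9.03, 9.19 and 9.14 with saline and 9.84, 9.84 and 9.69 with R848 in wild-type cells, and at 8.63, 7.88 and 8.72 and 9.45, 8.60 and 9.36 in knockout cells. Knockout arrays were below wild-type arrays in both treatments, though neither difference passed (adjusted p = 0.158 with saline, 0.333 with R848), and the sources used here do not say where the row's probes lie relative to the removed part. The interaction of Rasgef1b was 0.06 (95% interval -0.59 to 0.70), as its signal rose in both genotypes.

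Enpp4 stood at 4.72, 4.79 and 4.68 in wild-type cells with saline and at 4.97, 4.95 and 4.91 with R848. In knockout cells it stood at 4.56, 4.56 and 4.27 with saline and at 5.53, 5.71 and 5.53 with R848. With saline the knockout arrays were the lower 3, and with R848 they were the higher 3. The interaction of Enpp4 was 0.91 ± 0.12 (SE, 95% interval 0.65 to 1.18, limma adjusted p = 0.0226). Knockout exceeded wild type by 0.65 with R848 (adjusted p = 0.00404), and the saline difference of -0.27 did not pass (adjusted p = 0.202). The call was lost on leaving out any 1 of the 6 wild-type arrays or any 1 of the 3 knockout arrays with R848, with adjusted p values up to 0.122, while Cxcl1 passed in each of the 12 fits without 1 array.

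**Figure D2:**
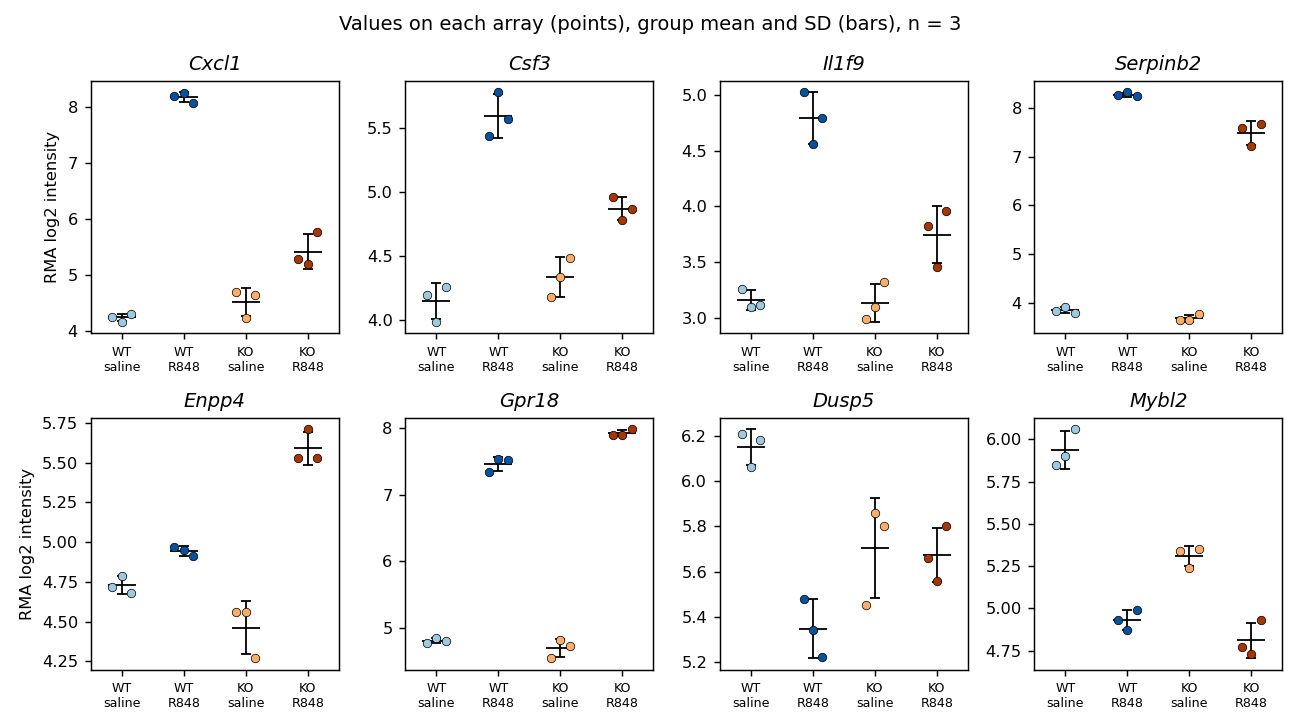
Log2 values of single arrays (points) with group mean and SD (bars) for 8 genes named in the text, by genotype (WT, wild type; KO, knockout) and treatment, 3 arrays a group; each panel has its own vertical scale. Cxcl1 with R848 lies between 5.19 and 5.77 in knockout cells and between 8.08 and 8.25 in wild-type cells.

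How many responses were kept was read from the 1043 genes that changed at least 2-fold with R848 when both genotypes were averaged, with an adjusted p under 0.05. That average is independent of the interaction in this balanced design. Of these genes 548 rose (3.89% of those tested) and 495 fell (3.52%). A response was called kept if the 95% interval of its interaction lay within a 2-fold change either way, -1 to 1 on the log2 scale. Kept does not mean unchanged, since this limit equals the smallest response counted and the interval of a kept gene can exclude 0. Zfp558, with 1.41 in wild-type and 0.83 in knockout cells (interval -0.87 to -0.28), was kept. So was Gpr18, with 2.65 and 3.22 (interval 0.32 to 0.82). The limit of 2-fold held for 1012 of 1043 responders (97.0%), against 99.3% of all tested genes. Within 1.5-fold either way lay 712 (68.3%), against 89.2%. The intervals had a median half-width of 0.33 on the log2 scale among the responders, so smaller changes were mostly not detectable with 3 arrays a group, even without adjustment. The adjusted threshold asked for more, and larger differences could miss it. Slc7a11, with an interaction of -0.93, did not pass (limma adjusted p = 0.746). Among the responders, Cxcl1 and Il1f9, the cytokine IL-36 gamma, had estimates weaker in the knockout by more than 1, and none was stronger by that much. Counting raised genes of any fold, Ifi208 (-1.30) joined them, for 3 in all. Il1f9 passed the filter on dim rows through the 3 wild-type arrays with R848 alone, so its difference is measured from background.

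At an unadjusted p under 0.05, 107 of the 1043 responders had an interaction (10.3%, against 4.93% of all tested genes). The response was the stronger in the knockout for 79 of them (73.8%) and the weaker for 28. Over all tested genes with such a p, it was the stronger for 443 (63.8%) and the weaker for 251. Genes lowered by R848 lay mostly on the side of a stronger fall in the knockout. Of 495 such genes 342 (69.1%) had a larger fall there, with a median interaction of -0.10, and of the 51 lowered at least 4-fold 39 did (76.5%), with a median of -0.16. Of 548 raised genes 317 (57.8%) had a larger rise in the knockout, with a median of 0.04. Over all tested genes the knockout response was the larger for 56.6%. These estimates share arrays, and the share among lowered genes ran from 60.8% to 75% on leaving out single arrays, the lowest without wild-type saline replicate 1, where the median of the lowered genes was -0.045.

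**Figure D3:**
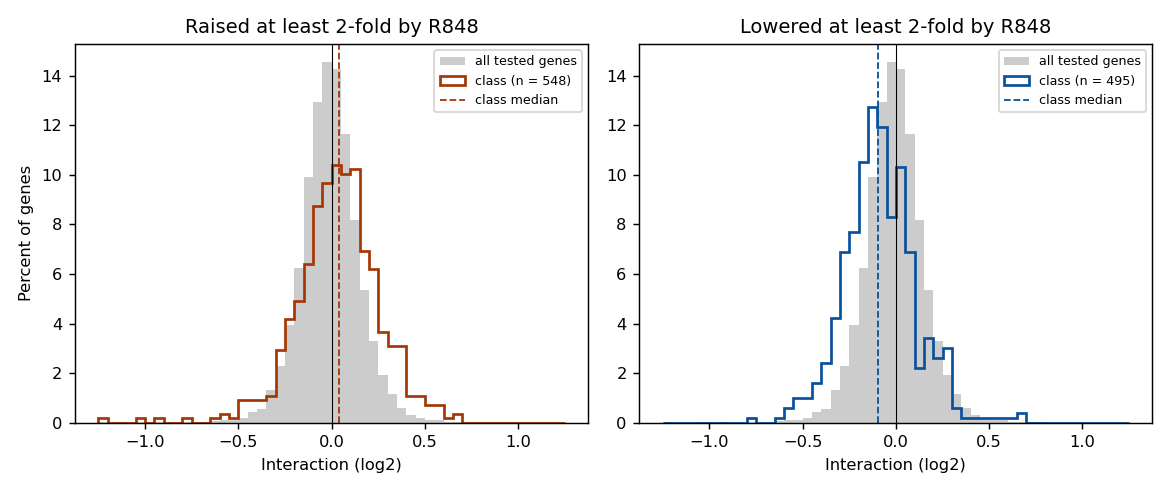
Percent of genes by interaction (log2) among all tested genes (grey) and among genes raised (left) or lowered (right) at least 2-fold by R848, averaged over genotypes, with the class median as a dashed line; Cxcl1 is counted in the lowest bin. The lowered genes have a median of -0.10 and the raised genes 0.04.

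The genes that R848 changed most had responses of similar size in both genotypes. The 12 largest increases were Il1b, Ptgs2, Acod1, Edn1, Cxcl3, Il1a, Saa3, Gpr84, Cd69, Fpr2, Gbp5 and Ifi205. Their knockout responses were 96.3% to 104% of the wild-type ones on the log2 scale, and all 12 intervals lay between -0.67 and 0.68. As folds the knockout responses were 85.3% (Il1a) to 119% (Saa3) of the wild-type ones. Of the 12, Il1b, Ptgs2, Cxcl3, Il1a and Fpr2 lay below the 40th percentile on all 6 saline arrays and 3 others on some of them. The log2 responses of these genes are thus measured from near background, and the highest R848 mean of the 12 genes, 12.11 for Il1b, was near the top of the range of all values. Il1b, the precursor of the cytokine interleukin-1 beta, went from 4.02, 4.10 and 4.11 to 12.09, 12.12 and 12.13 in wild-type cells and from 3.73, 4.08 and 4.21 to 12.03, 12.08 and 12.06 in knockout cells. The R848 arrays of the genotypes differed by no more than 0.10 in that gene, and its interaction was 0.01 (95% interval -0.29 to 0.31). Ptgs2, the inducible enzyme of prostaglandin synthesis, had -0.08 (95% interval -0.36 to 0.19), and Acod1, which makes itaconate, had -0.01 (95% interval -0.37 to 0.35).

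The 12 largest decreases were Rasgrp3, Zfp36l2, Dusp6, Rgs2, Snx30, Arrdc3, Snx24, Cxcr4, Arhgap25, Zfp36l1, Rasa3 and S1pr1. Their knockout responses were 98.2% to 116% of the wild-type ones on the log2 scale. As ratios of R848 to saline signal they were 73.2% (Cxcr4) to 104% (Rasa3) of the wild-type ratios. Of the 12 interactions 10 were below 0, and the smallest unadjusted p (limma) was 0.0615, that of Arrdc3. Rasgrp3, another exchange factor for Ras and Rap, fell from 8.45, 8.24 and 8.45 to 4.80, 4.79 and 4.44 in wild-type cells and from 8.94, 8.89 and 8.63 to 4.83, 4.75 and 5.01 in knockout cells. Its saline arrays were higher in the knockout and its R848 arrays overlapped, with an interaction of -0.25 (95% interval -0.60 to 0.10). Cxcr4, the receptor that holds cells in bone marrow, fell from 8.52, 8.25 and 8.62 to 5.69, 5.67 and 5.46 in wild-type cells and from 9.43, 8.83 and 8.43 to 5.58, 5.50 and 5.69 in knockout cells. Knockout saline replicate 1 was the highest of its arrays. The interval of Cxcr4, which ended at 0.10 on its upper side, reached just past -1, the limit for a kept response, and those of the other 11 did not. Zfp36l1, which promotes decay of AU-rich mRNAs, had -0.20 in the row used and -0.51 ± 0.13 (SE) in a second, dimmer row.

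**Figure D4:**
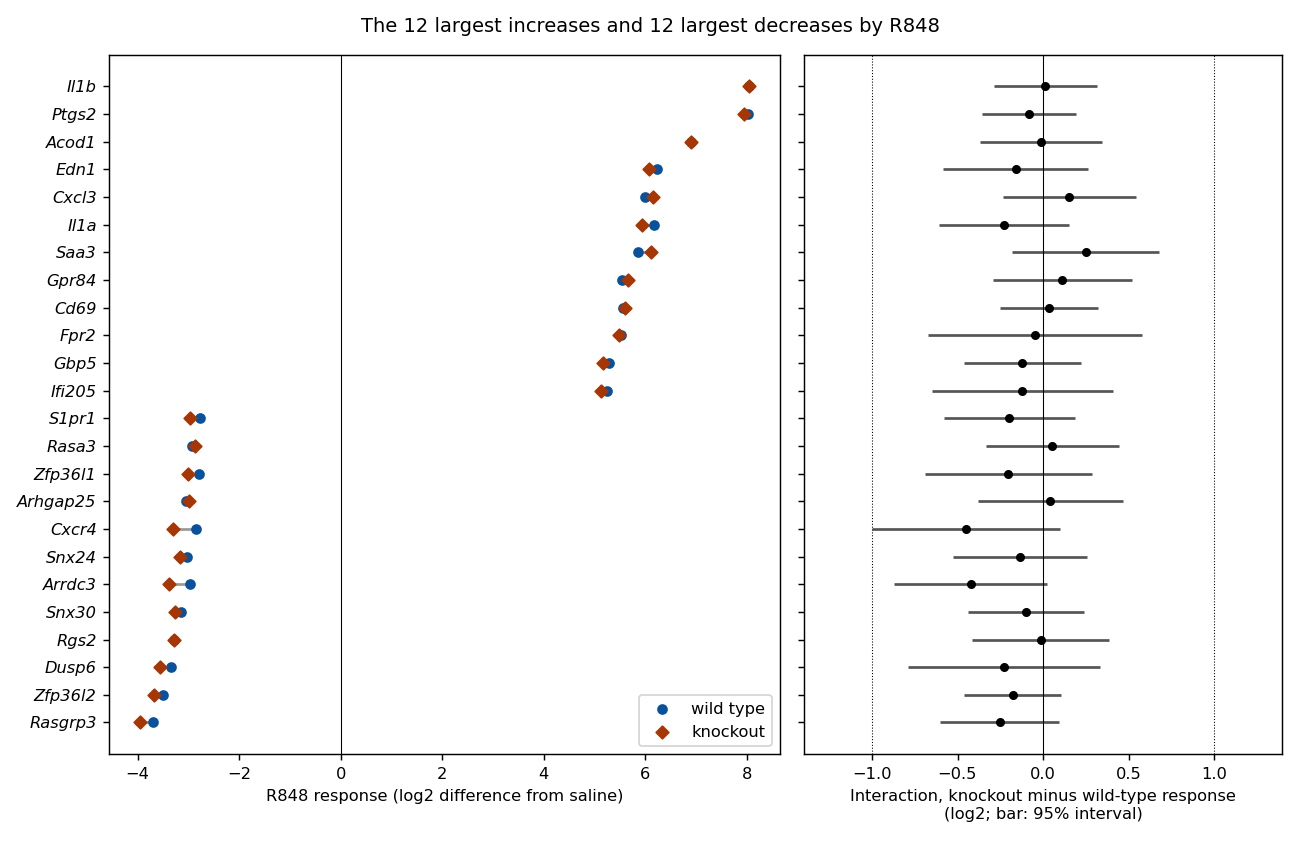
Left, R848 responses (log2 difference from saline) of the 12 most raised and 12 most lowered genes in wild type and knockout; right, their interactions with 95% intervals, dotted lines marking -1 and 1. The raised genes have interactions between -0.23 and 0.25, and the lowered ones between -0.45 and 0.05.

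Behind Cxcl1, the genes with the smallest p for a lower interaction included 2 secreted proteins that act on neutrophils or epithelia, neither past the threshold. Csf3, which encodes the growth factor G-CSF that mobilizes neutrophils, stood at 4.20, 3.99 and 4.26 with saline and 5.44, 5.78 and 5.57 with R848 in wild-type cells. In knockout cells it stood at 4.18, 4.34 and 4.49 with saline and 4.96, 4.78 and 4.87 with R848. Every knockout R848 array was below every wild-type one, while the saline arrays overlapped. Its interaction was -0.91 (limma adjusted p = 0.127), which passed with array weights (adjusted p = 0.0481), and its knockout difference with R848 passed (adjusted p = 0.00758). Il1f9 went from 3.26, 3.10 and 3.12 to 5.02, 4.56 and 4.79 in wild-type cells and from 2.99, 3.10 and 3.32 to 3.82, 3.46 and 3.96 in knockout cells. The same order held as for Csf3, with an interaction of -1.02 (adjusted p = 0.277). Il1f9 lay below the 40th percentile on all arrays but the 3 of wild type with R848, and Csf3 on 3 wild-type and 1 knockout array with saline.

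The other genes of that side were Acad12, Serpinb2, Ints6l, Dyrk1b, Zfp558, Slc7a11, Mob3a, Acp6 and Ifi208, with interactions between -1.30 and -0.42 and adjusted p values from 0.605 to 0.746. Dimmer second rows of Ints6l, Slc7a11 and Mob3a had -0.10, -0.12 and -0.16, against -0.79, -0.93 and -0.42 in the rows used. The second rows of Ints6l (0.06 in wild-type and -0.04 in knockout cells) and Mob3a (0.13 and -0.03) hardly responded. That of Slc7a11 rose by 0.40 and 0.28, against 4.09 and 3.16 in the row used. These second rows therefore say little about the differences. Slc7a11, the cystine transporter that supplies glutathione synthesis, reached 7.97, 7.14 and 7.63 with R848 in wild-type cells and 6.82, 6.60 and 6.37 in knockout cells, from saline values between 3.38 and 3.57. Serpinb2, an inhibitor of plasminogen activators, reached 8.25, 8.31 and 8.23 in wild-type cells and 7.58, 7.21 and 7.67 in knockout cells. Both rose in both genotypes and stood lower in the knockout with R848 (adjusted p = 0.0214 and 0.0029), and their interactions were -0.93 and -0.62. Both lay below the 40th percentile on all 6 saline arrays. Ifi208, of the interferon-inducible PYHIN family, rose in wild-type cells to 5.51, 5.03 and 5.51 and stood at 3.47, 3.70 and 3.16 in knockout cells with R848, against 3.07, 3.66 and 3.30 with saline. Its wild-type saline arrays were spread from 3.45 to 4.53, its interaction of -1.30 had an adjusted p of 0.746, and it lay below the 40th percentile on all 6 knockout arrays.

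In these 12 genes the genotypes parted more often under R848 than with saline. With R848 the knockout was below the wild type without overlap in 10 of 12, and with saline the genotypes did not overlap in 5. Over all tested genes 13.8% had no overlap between the genotypes in either direction with R848, and 16.1% with saline. Since the 12 were chosen by their interaction, these counts are a description. Dyrk1b, a kinase, and Acp6, a phosphatase of lysophosphatidic acid, were the other 2: they were higher in the knockout with saline and overlapped with R848.

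On the side of a higher interaction, the genotypes parted with saline, with R848 or with both. In 9 of the 12 genes the knockout was below the wild type without overlap in saline, and in 7 it was above it without overlap with R848, 4 of them in both. Over all tested genes 16.1% had no overlap in either direction with saline and 13.8% with R848. These 12 genes too were chosen by their interaction, so the counts are a description. Enpp4 was among the 4 apart in both treatments, and its difference passed with R848 alone. After Enpp4 these genes were Dusp5, Gpr18, Mybl2, Cytip, Setdb2, Bahd1, Creld2, Larp7, Olfr1057, Jag1 and Cdc14a, with interactions from 0.47 to 0.77 and adjusted p values from 0.409 to 0.878. Dusp5, a nuclear phosphatase of Erk that Erk itself induces, fell from 6.21, 6.06 and 6.18 to 5.48, 5.34 and 5.22 in wild-type cells. In knockout cells it stood at 5.45, 5.86 and 5.80 with saline and 5.66, 5.56 and 5.80 with R848, a change that did not pass (adjusted p = 0.857). Its interaction of 0.77 had an adjusted p of 0.409. Gpr18, a receptor for lipid mediators, rose from 4.78, 4.85 and 4.81 to 7.34, 7.53 and 7.52 in wild-type cells and from 4.55, 4.82 and 4.74 to 7.90, 7.90 and 7.98 in knockout cells. It parted under R848, where the knockout was higher (adjusted p = 0.0461). Mybl2, a cell cycle transcription factor, was lower in the knockout with saline (limma adjusted p = 0.00623) and overlapped with R848. Its second row had an interaction of 0.01 against 0.51. That row was dim (mean 4.48) and hardly responded in wild-type (-0.06) or knockout cells (-0.05), so it says little about the difference.

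Gene lists were read by counts at an unadjusted p under 0.05, for which 2.34% of tested genes were higher and 2.59% lower, and by the median interaction, which was -0.01 over all tested genes. The lists were drawn up with earlier results of these data known, so their counts are a description. Higher and lower give the sign of the interaction and not the level. A gene that R848 lowered thus counts as higher where its fall was weaker in the knockout. On leaving out single arrays the medians of 14 of the 21 lists changed sign at least once. In the receptor pathway, 0 of 31 Toll-like receptors, adaptors and proximal kinases reached an unadjusted p under 0.05 (limma), with a median of -0.03. Tlr7, the receptor for R848, had -0.11 (95% interval -0.36 to 0.14). Of 23 genes of the MAP kinase cascade 1 was higher, Rps6ka5 (0.36), and 2 were lower, Map3k1 (-0.38) and Mapk13 (-0.34). Of 37 genes for Ras or Rap GTPases and the proteins that load or switch them off, 0 reached it (median -0.01). Of 23 output genes and feedback inhibitors of Ras and Erk 2 were higher, Dusp5 and Spred2 (0.41), and 0 were lower. None of the genes named for these 4 lists passed the adjusted threshold.

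Among transcription factors, 1 of 27 immediate early genes reached it, Ier5 (0.27), and of 30 NF-kB subunits and inhibitors Tnip3 had 0.37 and Tnip1 -0.27. Both are binding partners of the ubiquitin-editing enzyme A20, and their counts were 1 in each direction. Of 28 inflammatory cytokines and mediators 2 were higher, Il12b (0.31) and Tnfsf15 (0.50), and 3 lower, Csf3, Il1f9 and Ptges. Of 25 chemokines 3 were higher, Ccl2 (0.63), Ccl7 (0.68) and Ppbp, and 2 lower, Cxcl1 and Cxcl11 (-0.42). Ccl2, which draws monocytes, stood at 9.29, 9.29 and 9.68 with saline in wild-type cells and 8.51, 8.78 and 9.07 in knockout cells. With R848 all 6 arrays lay between 10.86 and 10.94, so the genotypes were apart with saline and overlapped after R848, and its interaction had an adjusted p of 0.946. The chemokine list thus held estimates in both directions, with a median of 0.04.

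A list of 22 factors that attract or mobilize neutrophils, which overlaps the chemokine list, had 2 members higher, S100a9 and Ppbp, and 5 lower (median -0.01). The lower ones were Cxcl1, Csf3, the dim Il1f9, Ptges (-0.51), the inducible synthase of prostaglandin E, and Alox5 (-0.29), which starts leukotriene synthesis. Il1f9 passed the filter on dim rows only through the wild-type arrays with R848, where it is high. The 5 lower members are a description, as the list was drawn up with earlier results of these data known. Of 22 AU-rich mRNAs controlled by Zfp36, 1 was higher, Ccl2, and 2 lower, Cxcl1 and Csf3 (median 0.01). Interferon-stimulated genes had 1 of 41 higher, Isg15 (0.29), and 0 lower. Cxcl10, a chemokine for T cells, had the lowest estimate of that list at -0.44. Antigen presentation had 2 of 27 higher, Nlrc5 (0.35) and Psmb10 (0.25). Neither list held a gene past the adjusted threshold.

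Among effector and metabolic genes, 0 of 12 enzymes of itaconate, nitric oxide and arginine reached it. Nos2, the inducible nitric oxide synthase, stood at 9.19, 9.05 and 9.21 with R848 in wild-type cells and 10.07, 9.71 and 9.66 in knockout cells. Its knockout saline arrays ran from 4.17 to 5.55, and its interaction was 0.52. Prostaglandin and leukotriene genes had 2 of 21 lower, Ptges and Alox5, and 0 higher (median -0.08). Purinergic receptors and ectonucleotidases had 2 of 21 higher, Enpp4 and Gpr18, which is placed in the list although it is a receptor for lipid mediators, and 1 lower, Adora3 (-0.27). Of 28 proteases, serpins and coagulation genes Plau, the urokinase that Serpinb2 inhibits, had a higher interaction (0.48), and Serpinb2 and Mmp19 (-0.27) lower ones. R848 lowered Plau in both genotypes, by less in the knockout (-2.26 in wild-type and -1.78 in knockout cells). Glycolysis and the hypoxia response had 2 higher of 30, Slc2a1 (0.37) and Pfkp (0.26), and 2 lower, Pfkfb4 and Ndrg1 (both -0.34). Cholesterol synthesis had 0 of 19, with 15 estimates above 0 (47.4% over all tested genes). Its median of 0.06 was -0.08 without knockout saline replicate 3 and 0.25 without knockout R848 replicate 3.

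The cell cycle list and a list of regulators and receptors that Toll-like receptor signals lower both held mostly genes that R848 lowered, 40 of 40 and 23 of 29. Of 40 cell cycle genes 3 were higher, Mybl2, E2f2 (0.45) and Cdc6 (0.66), and 0 lower. Their median of 0.03 ran from -0.10 to 0.15 on leaving out single arrays, and 6 of the 12 arrays turned its sign when left out, the lowest value being without knockout saline replicate 2. Cdc6, which loads replication origins, stood at 5.53, 6.11 and 5.91 with saline in wild-type cells and 5.06, 4.83 and 5.36 in knockout cells, and the genotypes overlapped with R848. Of 29 regulators and receptors 0 were higher and 3 lower, Txnip (-0.43), Lyl1 (-0.50) and Irf2bp2 (-0.51). In that list 25 of 29 estimates were below 0. The share was 76.5% of the genes lowered at least 4-fold, 69.1% of those lowered at least 2-fold and 52.3% of all tested genes. The list holds Rasgrp3, Zfp36l2, Dusp6 and Rgs2, which are among the largest decreases named above. Its median wild-type response was -1.79, against -1.28 for the genes lowered at least 2-fold, so the count is a description. The median interaction of -0.13 ran from -0.16 to -0.065 on leaving out single arrays, the latter without wild-type saline replicate 1. Txnip, an inhibitor of thioredoxin and of glucose uptake, stood at 10.90, 10.85 and 11.01 with saline in wild-type cells and at 11.25, 11.21 and 11.11 in knockout cells, and fell in both. Housekeeping genes had 0 of 13 (median -0.02).

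**Figure D5:**
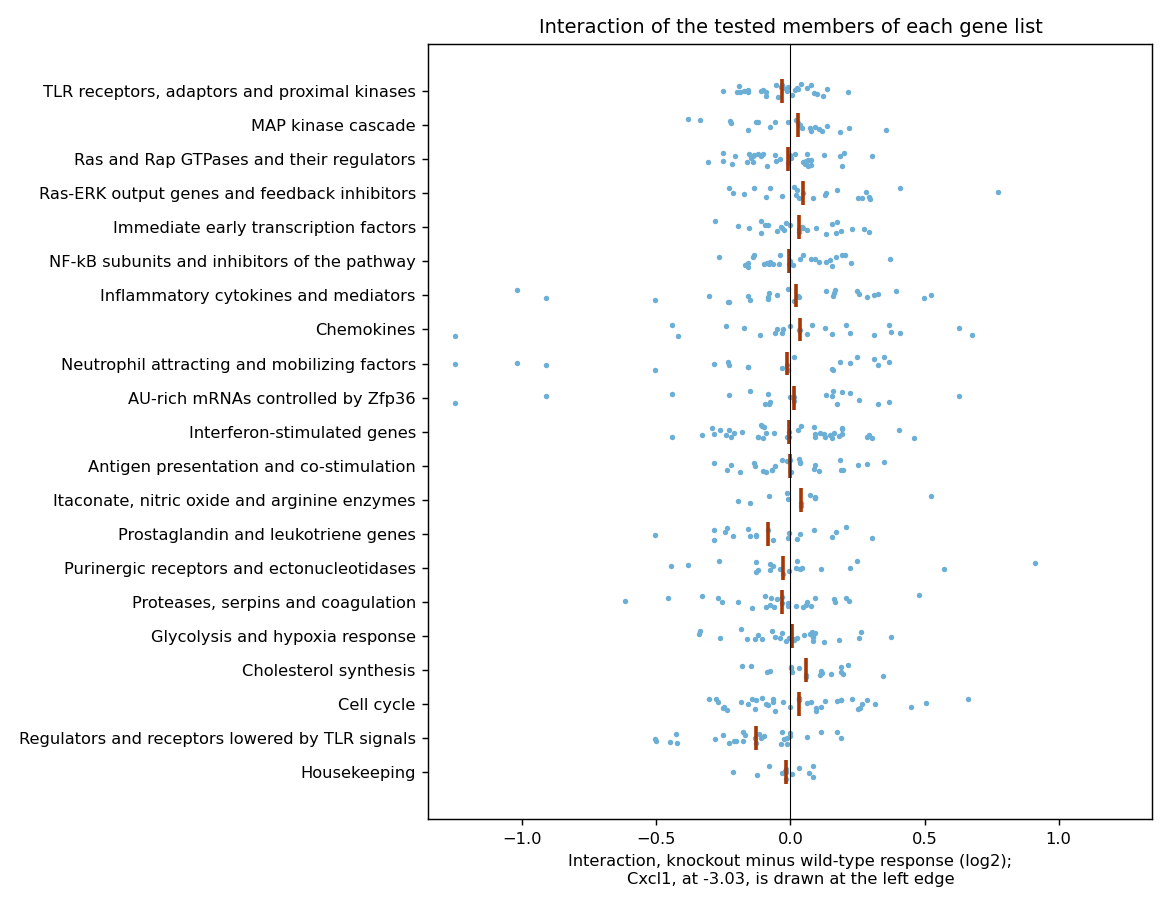
Interaction (log2) of each tested member (points) of 21 gene lists, with the list's median as a bar. Cxcl1, which is in 3 of the lists, is drawn at the left edge; the regulators lowered by Toll-like receptor signals have the lowest median, -0.13.

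A change called in one genotype and not in the other was seldom matched by an interaction past the adjusted threshold. R848 changed 691 genes past the threshold in wild-type cells and not in knockout cells, and 0 of these had an interaction that passed, with 110 (15.9%) at an unadjusted p under 0.05 (limma), against 4.93% over all tested genes. It changed 1162 in knockout cells and not in wild-type cells, and 1 of these, Enpp4, had an interaction that passed, with 180 (15.5%) at an unadjusted p under 0.05. In both genotypes and in the same direction it changed 4695, of which 1, Cxcl1, passed and 258 (5.50%) were at an unadjusted p under 0.05. These groups were formed from the same arrays as the interaction, so the shares are a description. A single gene was called in opposite directions, the pseudogene Rps15a-ps5, with 0.19 in wild-type and -0.31 in knockout cells; it was chosen after its values were seen, and its interaction had an adjusted p of 0.277.

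All arrays carried the macrophage markers, whose mean log2 level lay between 10.17 and 10.41, and 0 of 14 had an interaction at an unadjusted p under 0.05. Markers of neutrophils, of which 4 of 13 passed the filter, lay between 3.94 and 4.06 on average, those of dendritic cells between 5.14 and 5.41, of T and NK cells between 4.31 and 4.45, and of B cells between 3.72 and 3.83. Markers of mast cells lay between 3.56 and 3.78, of red cells and megakaryocytes between 5.16 and 5.31, and of fibroblasts between 4.50 and 4.63. The part of other cells in the results was not tested. The neutrophil marker S100a9 had an interaction of 0.35 and the dendritic cell marker Cd209a had -0.55 in the row used and -0.06 in its other row. Bulk RNA does not tell fewer cells of a type from less RNA per cell. Within a group, arrays correlated at 0.991 to 0.996.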

How the data were processed

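Total RNA of 12 samples was hybridized to Affymetrix Mouse Gene 2.1 ST arrays. Per the submitters' processing notes, the authors used Affymetrix Expression Console and RMA, which corrects background, applies quantile normalization and summarizes probes; no versions are stated. The authors' deposited table holds log2 intensities between 2.15 and 12.85, and RMA hides any change in total RNA. Of 34472 rows, 23521 had 1 gene symbol; of several rows of a gene the brightest was used. A gene was tested where at least 3 arrays exceeded the 40th percentile (4.31 to 4.35 by array), which left 14079. Groups and replicate numbers came from the sample titles.

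All arrays entered 1 model per gene (limma 3.58.1, R 4.3.3), with lmFit on group means followed by eBayes, and each contrast was adjusted by Benjamini-Hochberg at 0.05. The fit was tested on simulated data. Replicate numbers were checked for pairing by residual correlations. Only the knockout pair of groups exceeded 0.1 for all 3 replicates, so the main fit used no block. The arrays still shared structure by replicate number. On the third principal component, an axis with 3.0% of the variance between arrays, the replicate 1 arrays of the 4 groups lay between 7.68 and 9.18. The replicate 3 arrays lay between -8.95 and -5.21. Fits with the replicate number as a block are given below. The rule for named genes took the genes past the threshold, the 12 smallest interaction p-values in each direction, the 12 largest R848 changes in each direction, members of the lists by R848 change and by p, and Rasgef1b, Tlr7 and the CXC chemokines of chromosome 5, without gene-model, clone, small RNA and pseudogene names. The genes, lists and rules were chosen with earlier results of these data known. Alternatives covered filters, scaling, array weights, blocks, the first component of the residuals as a covariate, every row per gene, and single arrays left out. Promoters and gene order came from RefSeq tables of GRCm38.p6.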

Additional observations from a re-analysis of the deposited data

Results flagged for a closer look

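Cxcl1 and Enpp4 are the genes whose R848 response differed between the genotypes by a test of the difference itself. The interaction of Cxcl1 was -3.03, with a rise of 3.93 in wild-type and 0.90 in knockout cells on the log2 scale. The interaction of Enpp4 was 0.91, with 0.21 in wild-type and 1.13 in knockout cells.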

How the results depend on the processing

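Cxcl1 passed under all 10 alternatives that kept every array, with interactions from -3.05 to -2.97, and without each of the 12 arrays (-3.21 to -2.92). Enpp4 passed under the same 10 alternatives and lost the call in 9 of the 12 fits without 1 array. The count of genes past the threshold was 2 under the alternatives with every array, except 3 with array weights, which added Csf3, and 1 to 2 on leaving out single arrays. The fit with the replicate number as a block called 2 genes, the same ones. Genes at an unadjusted p under 0.05 (limma) numbered 694 in the main fit and 877 with that block. They numbered 888 with array weights, 922 with the first component of the residuals and 1002 with correlated pairs, but 688 with an intensity trend and robust spread. Kept responses numbered 977 to 1023 under the alternatives with every array, 976 to 1010 without single arrays, and 6981 when responders of any fold were counted, which takes in more genes. The median interaction of the lowered genes was -0.045 without wild-type saline replicate 1 and -0.06 with array weights. None of the interactions of the 24 genes with the smallest p changed sign under the alternatives in which the gene was tested. A surrogate variable estimated by sva is not reported; the first component of the residuals, chosen in its place after the data were seen, called the same 2 genes. Il1f9, Acad12, Ifi208 and Olfr1057, which are among those genes, were not tested under the stricter filter. With 3 arrays a group the 95% interval of the interaction had a median half-width of 0.28 over all tested genes, and dim genes are compressed by background. Rows without exactly 1 symbol gave 0 of 5174 past the threshold and 249 at an unadjusted p under 0.05 (limma).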
